A study of Homo sapiens with 6 samples.

Results

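The 9 genes described here encode regulators of plasminogen activation and of the start of blood coagulation. They were chosen with earlier results of these data known and matched by gene symbol: PLAUR, PLAU, PLAT, SERPINE2, F3, TFPI, TFPI2, THBD and ANXA2. Each symbol matched 1 of the 60027 rows of the deposited table, and all 9 passed the filter on low values. The cells were NCI-H292, an established human lung line of mucoepidermoid carcinoma origin, and polyadenylated RNA was sequenced. In 3 libraries the long noncoding RNA SH3PXD2A-AS1 had been knocked down. The other 3 were negative control libraries, called vector control in the series text. The knockdown reagent, its delivery and whether cells were cloned are not given in the sources used here. The labels do not say whether replicates were grown separately, so a p-value here reflects library-to-library spread, which may be technical.

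Plasmin is a broad protease that dissolves fibrin and helps cells move through matrix. It is cut from circulating plasminogen by urokinase (PLAU) or by tissue plasminogen activator (PLAT), and urokinase works at the cell surface when held by its receptor (PLAUR). Tissue factor (F3) starts coagulation by binding factor VII. Inhibitors such as TFPI and the receptor thrombomodulin (THBD) restrain it, and many carcinoma cells carry tissue factor and urokinase receptor on their surface.

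Levels are given as TPM, a length-scaled transcript abundance with a fixed total per library, which divides reads by gene length and so allows genes to be compared. Depth is unknown because TPM keeps none. Between 23162 and 25910 genes per library had a TPM over 0. SH3PXD2A-AS1 itself stood at 0.37, 0.68 and 0.44 TPM in knockdown replicates 1 to 3, against 0.96, 0.75 and 0.51 TPM in negative control replicates 1 to 3. The groups overlapped (exact two-sided permutation test, p = 0.2, where 0.1 is the smallest p for 3 against 3), so the level of the targeted RNA did not separate the labels. All 5 epithelial markers (EPCAM, KRT8, KRT18, KRT19 and CDH1) stood at 61.02 TPM or more in every library. CDH1, KRT19 and EPCAM rose in knockdown cells, while KRT8 and KRT18 were not called (limma adjusted p = 0.0627 and 0.477). The mean of KRT18 was 1116 TPM in knockdown and 1149 TPM in negative control libraries. Endothelial markers, which matter because THBD, TFPI and PLAT are also endothelial genes, summed to only 1.63 to 2.20 TPM in knockdown and 1.37 to 2.14 TPM in negative control libraries over 5 genes. The 5 platelet markers summed to 3.34 to 3.87 TPM in knockdown and 3.34 to 3.83 TPM in negative control libraries. The 5 fibroblast markers, nearly all COL1A1, summed to 23.1 to 26.6 TPM in knockdown and 19.9 to 22.6 TPM in negative control libraries, with LUM at 0 throughout. The 5 leukocyte markers summed to 57.4 to 62.4 TPM in knockdown and 38.4 to 44.0 TPM in negative control libraries. That sum was nearly all CD68, a lysosomal gene, and PTPRC was at 0 in all 6 libraries. The part of these markers in the results was not tested.

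The stretches upstream of the RefSeq start sites are shown for the 4 genes that held an AP-1 motif there, since AP-1 is a known regulator of the PLAUR and F3 promoters; they were picked after the motif counts were seen. RefSeq promoters on GRCh38.p14 were found for 7 of the 9 genes. None was found for PLAT or THBD, which lay lower in every knockdown library, so the motif counts leave both out. The 250 bases before each start were searched on both strands, and the AP-1 motif (TGANTCA) was present in 4 of 7, against 6.57% of 35116 promoters in the same table. Capitals mark the AP-1 motif, and each sequence runs 5′ to 3′ on the gene's own (minus) strand. The regions are chr19:43670170-43670419 for PLAUR, chr1:94541760-94542009 for F3, chr7:93890754-93891003 for TFPI2 and chr15:60397987-60398236 for ANXA2. RefSeq and GENCODE 29 place starts differently: the windows of PLAUR and ANXA2 lie inside the gene bounds given below, that of TFPI2 nearly all inside, and that of F3 mostly outside.
PLAUR: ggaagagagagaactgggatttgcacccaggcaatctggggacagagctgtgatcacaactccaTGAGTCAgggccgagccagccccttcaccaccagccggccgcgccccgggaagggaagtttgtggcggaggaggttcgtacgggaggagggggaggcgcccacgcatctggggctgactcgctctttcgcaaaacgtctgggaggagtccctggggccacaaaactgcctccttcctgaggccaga
F3: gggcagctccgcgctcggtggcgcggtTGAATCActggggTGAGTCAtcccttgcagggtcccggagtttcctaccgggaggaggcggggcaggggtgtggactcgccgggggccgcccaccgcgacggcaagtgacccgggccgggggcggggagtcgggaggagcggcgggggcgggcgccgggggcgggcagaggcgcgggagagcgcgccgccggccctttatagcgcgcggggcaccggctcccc
TFPI2: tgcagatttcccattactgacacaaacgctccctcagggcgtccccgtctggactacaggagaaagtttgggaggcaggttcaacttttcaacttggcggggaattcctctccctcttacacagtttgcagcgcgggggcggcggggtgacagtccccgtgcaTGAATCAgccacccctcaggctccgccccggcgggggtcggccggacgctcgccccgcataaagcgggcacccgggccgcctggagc
ANXA2: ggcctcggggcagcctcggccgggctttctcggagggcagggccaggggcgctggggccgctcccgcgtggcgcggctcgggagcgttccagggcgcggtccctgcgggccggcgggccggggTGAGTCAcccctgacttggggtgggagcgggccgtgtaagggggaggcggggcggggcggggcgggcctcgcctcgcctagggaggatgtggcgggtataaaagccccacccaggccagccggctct
PLAUR had 1 match, at bases -186 to -180 from the start, and F3 had 2, at -223 to -217 and -210 to -204. TFPI2 had 1 at -87 to -81 and ANXA2 1 at -127 to -121. A loose NF-kB pattern was in 6 of 7, against 54.4% of all promoters. The SP1 motif (GGGCGG) was in 4 of 7, against 42.6%. The letters TATAAA, those of a TATA box, were matched on either strand in 2 of 7 promoters, against 10.7%. The ANXA2 match, at -31 to -26, was on the gene's own strand. That of F3, at -28 to -23, was on the opposite strand and reads TTTATA in the sequence shown. The SP1 letters overlapped the NF-kB pattern in F3, TFPI2 and ANXA2. The interferon-response core, the GAS element (TTCNNNGAA) and the CRE core (TGACG) were in none of the 7, against 3.02%, 6.57% and 21.2% of all promoters. These are matches of letters in 1 window and not sites shown to be bound.

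In knockdown cells, 6 of the 9 genes rose and 0 fell by limma across all 15755 genes with a mean of at least 1 TPM. A gene was called at a Benjamini-Hochberg adjusted p under 0.05. Of all genes tested, 11.3% were called higher and 3.47% lower. With a filter at a mean TPM of 5, 1791 of 11281 genes were called higher and 573 lower. The 9 genes were chosen with earlier results of these data known, so these shares stand beside their count as a description only. At an unadjusted p under 0.05, 6 of the 9 were higher and 2 lower. The share of all genes at that p is not given here, so these 2 cannot be set against the 3.47%. By limma p, THBD and PLAT ranked 2425 and 3144 among the 15755 genes. The median log2 fold change of the 9 genes was 0.27, against 0.08 over all genes tested. The groups did not overlap for 8 of the 9 genes, against 36.5% of all genes. Each fold change is a difference of log2(TPM + 1) means, knockdown minus negative control, and understates changes of genes near 0.

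**Figure D1:**
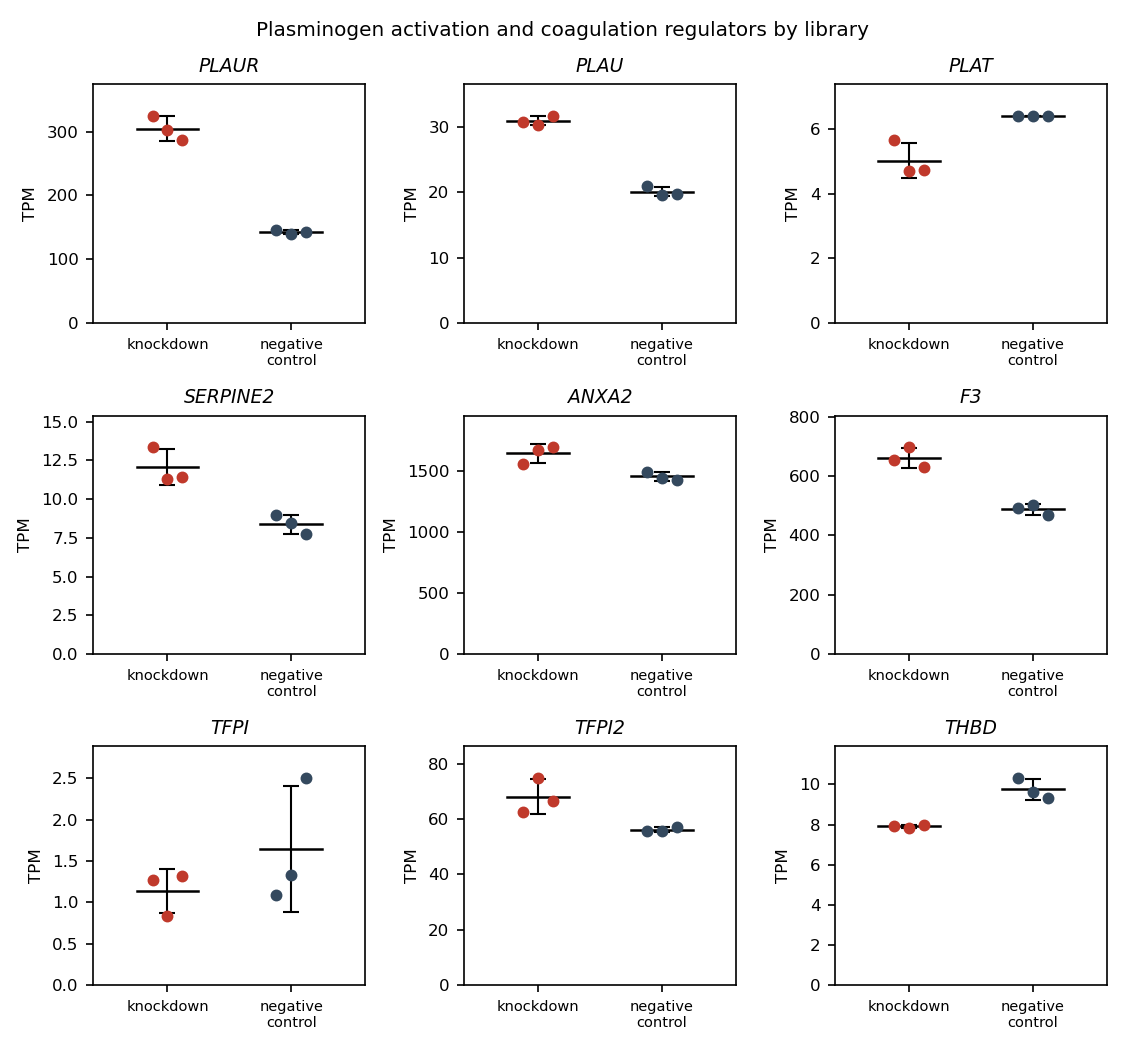
TPM (y axis, from 0) of each gene in the 3 knockdown and 3 negative control libraries, 1 point per library, with the group mean and SD as lines. PLAUR, PLAU, SERPINE2, F3, TFPI2 and ANXA2 lie higher in every knockdown library, PLAT and THBD lower, and TFPI overlaps between groups.

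The urokinase receptor gene showed the largest difference of the 9. PLAUR (ENSG00000011422, chromosome 19 at 43646095 to 43670547, minus strand of GRCh38) encodes a receptor anchored to the membrane by a lipid tail. It stood at 325, 302 and 287 TPM in knockdown replicates 1 to 3, against 146, 139 and 142 TPM in negative control replicates 1 to 3. The groups were far apart, with the lowest knockdown library well above the highest negative control library. The mean was 305 ± 19.2 TPM in knockdown and 143 ± 3.54 TPM in negative control libraries (SD, n = 3), 2.13 times as high. The limma log2 fold change was 1.09 (SE 0.05, 95% interval 0.96 to 1.22, adjusted p = 0.00021). Its p ranked 20 among the 15755 genes, and 2.28% of genes had a larger difference in either direction.

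The urokinase transcript rose with that of its receptor, but by less. PLAU (ENSG00000122861, chromosome 10 at 73909177 to 73917497, plus strand) encodes the secreted protease. Its level was 30.8, 30.4 and 31.8 TPM in knockdown libraries, against 21.0, 19.7 and 19.7 TPM in negative control libraries. All knockdown libraries lay above all negative control libraries, and both groups were tight. The mean was 31.0 ± 0.712 TPM in knockdown and 20.1 ± 0.748 TPM in negative control libraries (SD, n = 3), and the log2 difference by limma was 0.60 (SE 0.06, 95% interval 0.46 to 0.73, adjusted p = 0.00136). C10orf55, a gene on the opposite strand, shares 916 exon bases with PLAU in GENCODE 29. It was listed at no more than 0.69 TPM in any library. No source used here says if strand was kept in counting, so reads of the 2 genes within these shared bases cannot be told apart.

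The transcript of the second activator did not follow. PLAT (ENSG00000104368, chromosome 8 at 42175233 to 42207724, minus strand) encodes tissue plasminogen activator, which cuts plasminogen mainly where fibrin is present. It stood at 5.65, 4.70 and 4.73 TPM in knockdown libraries, against 6.42 TPM in each of the 3 negative control libraries. The groups did not overlap, and the 3 negative control values were equal to 2 decimals. The limma log2 fold change of −0.30 (SE 0.10, 95% interval −0.53 to −0.07) missed the threshold (adjusted p = 0.0836). Quantile normalization gave a call (log2 fold change −0.41, adjusted p = 0.0473).

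The serpin SERPINE2 rose. SERPINE2 (ENSG00000135919, chromosome 2 at 223975112 to 224039319, minus strand) encodes protease nexin-1, a secreted inhibitor of thrombin, urokinase and plasmin. Levels were 13.4, 11.3 and 11.5 TPM in knockdown libraries, against 8.96, 8.43 and 7.74 TPM in negative control libraries. The groups did not overlap, with knockdown replicate 1 the highest. The mean was 1.44 times as high, with a limma log2 fold change of 0.48 (SE 0.09, adjusted p = 0.0199). The call was lost after quantile normalization (adjusted p = 0.0586). It was also lost on leaving out knockdown replicate 1, 2 or 3 or negative control replicate 2 or 3 (adjusted p between 0.0502 and 0.0725), and held without negative control replicate 1 (adjusted p = 0.0438).

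ANXA2 rose by a small amount. ANXA2 (ENSG00000182718, chromosome 15 at 60347134 to 60402883, minus strand) encodes annexin A2, which with S100A10 forms a surface complex that binds plasminogen and PLAT. It was the most abundant of the 9 genes, at 1555, 1674 and 1698 TPM in knockdown libraries, against 1490, 1444 and 1425 TPM in negative control libraries. Knockdown replicate 1 lay only slightly above negative control replicate 1. The mean was 1.13 times as high (limma log2 fold change 0.18, SE 0.04, adjusted p = 0.0426), and 47.8% of genes had a larger difference in size. After median ratio scaling the log2 fold change was 0.08 (adjusted p = 0.26). After quantile normalization it was larger, at 0.27, and ANXA2 was still called. Of the 6 fits without 1 library, only that without knockdown replicate 1 kept the call (adjusted p = 0.0208), and the other 5 gave adjusted p between 0.0882 and 0.142. The near copies ANXA2P1, ANXA2P2 and ANXA2P3 were listed at 0.29 TPM or less in every library. Reads shared between them and ANXA2 could have been counted to either.

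**Figure D2:**
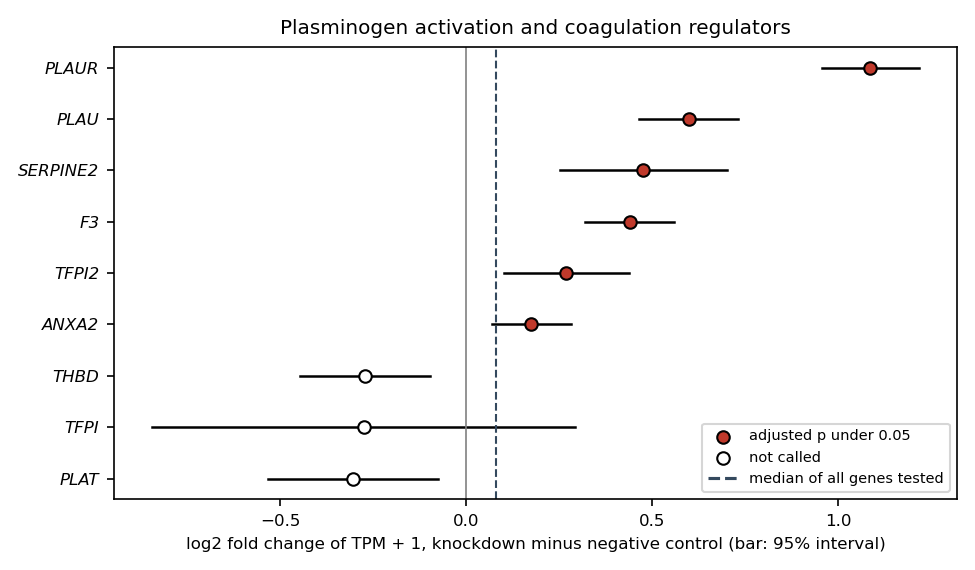
Limma log2 fold change of TPM + 1 for each gene (x axis, knockdown minus negative control), with its 95% interval as a bar. Filled points passed an adjusted p of 0.05, and the dashed line is the median of all genes tested, 0.08. The intervals of PLAUR, PLAU, SERPINE2, F3 and TFPI2 lie above that median, that of ANXA2 crosses it, and those of PLAT and THBD lie below 0.

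The transcript of tissue factor, the starter of coagulation, rose. F3 (ENSG00000117525, chromosome 1 at 94529225 to 94541800, minus strand) stood at 654, 699 and 631 TPM in knockdown libraries, against 493, 501 and 468 TPM in negative control libraries. Every knockdown library exceeded every negative control library by more than the spread within a group. The mean was 661 ± 34.5 TPM in knockdown and 487 ± 17.4 TPM in negative control libraries (SD, n = 3), 1.36 times as high. The limma log2 fold change was 0.44 (SE 0.05, 95% interval 0.32 to 0.56, adjusted p = 0.00279). F3 ranked 224 of 15755 tested genes by level.

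The 2 tissue factor pathway inhibitors, relatives built from Kunitz domains, differed in level, and no test compared their responses. TFPI2 (ENSG00000105825, chromosome 7 at 93885396 to 93890991, minus strand) encodes a matrix-bound inhibitor of plasmin and trypsin that blocks tissue factor only weakly. It stood at 62.8, 75.0 and 66.7 TPM in knockdown libraries, against 55.7, 55.8 and 57.2 TPM in negative control libraries. The groups did not overlap, and knockdown replicate 2 was the highest. In limma the log2 difference was 0.27 (SE 0.07, adjusted p = 0.0484), just inside the threshold. Median ratio scaling ended the call (0.18 on the log2 scale, adjusted p = 0.119). It was lost too without any 1 library other than knockdown replicate 1 (adjusted p between 0.0919 and 0.13), and it held without that one (adjusted p = 0.0346). GNGT1, on the opposite strand, shares 44 exon bases with TFPI2. It stood at 9.76, 11.1 and 9.42 TPM in knockdown and 6.72, 8.01 and 9.95 TPM in negative control libraries, and its part in the TFPI2 values was not tested.

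TFPI itself, the main physiological brake on tissue factor, was near the filter on low values. TFPI (ENSG00000003436, chromosome 2 at 187464230 to 187565760, minus strand) stood at 1.27, 0.83 and 1.32 TPM in knockdown libraries, against 1.09, 1.33 and 2.51 TPM in negative control libraries. The groups overlapped, and negative control replicate 3 was the highest library by far. The limma log2 fold change of −0.28 had a 95% interval from −0.84 to 0.29 (adjusted p = 0.486), and it was −0.05 without negative control replicate 3.

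The thrombomodulin transcript was lower without passing the test. THBD (ENSG00000178726, chromosome 20 at 23045633 to 23049741, minus strand) encodes the receptor that turns thrombin toward activation of protein C, an anticoagulant. It stood at 7.93, 7.81 and 7.99 TPM in knockdown libraries, against 10.3, 9.63 and 9.32 TPM in negative control libraries. The knockdown libraries were tightly grouped and lay below all negative control libraries. The limma log2 fold change was −0.27 (SE 0.07, 95% interval −0.45 to −0.10, adjusted p = 0.0539), just outside the threshold. It was called after median ratio scaling (log2 fold change −0.36, adjusted p = 0.0266), quantile normalization (adjusted p = 0.0225), rescaling without mitochondrial DNA and ribosomal protein genes (adjusted p = 0.0303) and with a prior spread without trend (adjusted p = 0.0438).

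The 9 genes spanned a wide range of levels in a nearly fixed order. In knockdown libraries the order from high to low was ANXA2, F3, PLAUR, TFPI2, PLAU, SERPINE2, THBD, PLAT and TFPI. The same order held in negative control libraries except that THBD stood 1.17 times above SERPINE2, while SERPINE2 stood 1.52 times above THBD in knockdown libraries. No 2 neighbours in either order overlapped between libraries. The 9 genes together summed to 2656 to 2805 TPM in knockdown and 2138 to 2233 TPM in negative control libraries.

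Library scaling bears on the smaller differences. The share of TPM held by mitochondrial DNA genes was 7.20% to 7.40% in knockdown and 10.7% to 10.9% in negative control libraries, and a lower share of some genes raises the TPM of the others. Under median ratio scaling, the median over all genes tested fell by 0.08 on the log2 scale. With these and ribosomal protein genes left out of the scaling, the log2 fold changes were 1.01 for PLAUR, 0.53 for PLAU, 0.36 for F3 and 0.41 for SERPINE2, all still called. Those of TFPI2 and ANXA2 were 0.19 and 0.10 (adjusted p = 0.127 and 0.232).

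A plain ratio between genes of 1 library does not depend on its scaling, but the added 1 makes the ratios used here depend on it slightly, most for low genes such as TFPI. The 7 ratios compared pair ligands, receptors, proteases and inhibitors, taken as log2 of (TPM + 1) over (TPM + 1). The groups did not overlap for 6 of the 7. The share of all gene pairs without overlap is not given here, so this count has no background. Among single genes, 36.5% of all tested and 8 of the 9 did not overlap. Each of the 6 had an exact two-sided permutation p of 0.1, the smallest that 3 against 3 allows, or 0.117 after Benjamini-Hochberg adjustment over the 7. No ratio could therefore pass 0.05.

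The receptor transcript was higher relative to that of its ligand in knockdown libraries. The log2 ratio of PLAUR to PLAU was 3.36, 3.27 and 3.14 in knockdown libraries, against 2.74, 2.76 and 2.79 in negative control libraries, a difference of 0.49. PLAT over PLAU was lower, with log2 ratios of −2.26, −2.46 and −2.52 in knockdown and −1.57, −1.48 and −1.48 in negative control libraries (difference −0.90). In every library F3 was far above THBD, the thrombomodulin gene, and the distance was larger in knockdown libraries. The log2 ratio of F3 to THBD was 6.20, 6.31 and 6.13 in knockdown libraries, against 5.44, 5.56 and 5.50 in negative control libraries (difference 0.71). In plain TPM, F3 was 78.9 to 89.5 times THBD in knockdown and 47.7 to 52.0 times THBD in negative control libraries. F3 over TFPI2 differed by 0.17 and F3 over TFPI by 0.71, and the second value was 0.46 without negative control replicate 3. The ratio of ANXA2 to its partner S100A10 was lower in knockdown libraries (difference −0.25). PLAU over SERPINE2 differed by 0.12, and its groups overlapped (exact p = 0.2). It was 0.20 without knockdown replicate 1 and 0.07 without knockdown replicate 3.

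**Figure D3:**
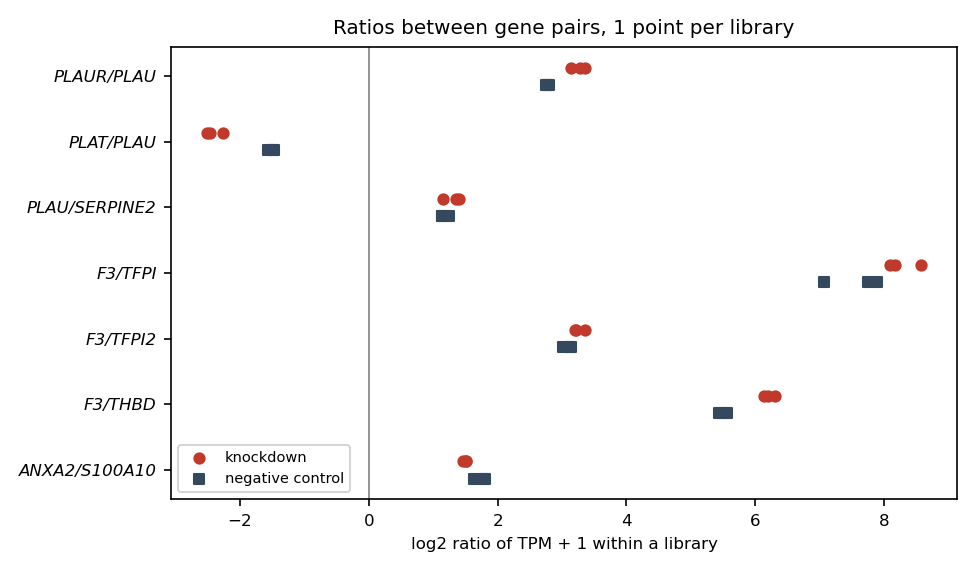
Log2 ratio of TPM + 1 between 2 genes of the same library (x axis), 1 point per library, with knockdown libraries as circles above negative control libraries as squares. The groups do not overlap for 6 ratios and overlap for PLAU over SERPINE2. Among the 6, group means differ by as little as 0.17 for F3 over TFPI2 and as much as 0.90 for PLAT over PLAU. Single libraries can be closer: for F3 over TFPI2, knockdown replicate 2 is at 3.20 and negative control replicate 2 at 3.14.

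Other genes of the plasminogen system were called in both directions, but only the higher calls held in every alternative. Of 20 listed beside the 9, 11 passed the filter, of which 3 rose and 2 fell, with a median log2 fold change of 0.10. Over all genes tested, 11.3% were called higher and 3.47% lower. The count of 3 was the same in every alternative. The count of 2 became 0 without a filter or trend, and 1 or 0 without any 1 library. SERPINB2, which encodes the urokinase inhibitor PAI-2, stood at 169, 199 and 172 TPM in knockdown libraries, against 57.7, 52.8 and 46.1 TPM in negative control libraries. It rose by more than any of the 9 genes (limma log2 fold change 1.77, SE 0.10, adjusted p = 0.000239). ST14, a membrane protease able to activate pro-urokinase, rose to 213 ± 8.96 TPM in knockdown libraries, against 132 ± 4.42 TPM in negative control libraries (SD, n = 3; limma adjusted p = 0.000541). S100A10, the annexin A2 partner, rose to 583 ± 31.1 TPM in knockdown libraries, against 434 ± 29.4 TPM in negative control libraries (limma adjusted p = 0.00742). ENO1, a glycolytic enzyme that also binds plasminogen at the cell surface, named after its values were seen, fell to 603 ± 32.7 TPM in knockdown libraries, against 696 ± 24.1 TPM in negative control libraries (limma adjusted p = 0.0403). The call of ENO1 was lost without a filter on low values (limma adjusted p = 0.102). Without 1 library, ENO1 was not called in any of the 6 fits (adjusted p between 0.0615 and 0.131). PLG, the plasminogen gene itself, was nearly absent, with a mean of 0.005 TPM over the 6 libraries.

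**Figure D4:**
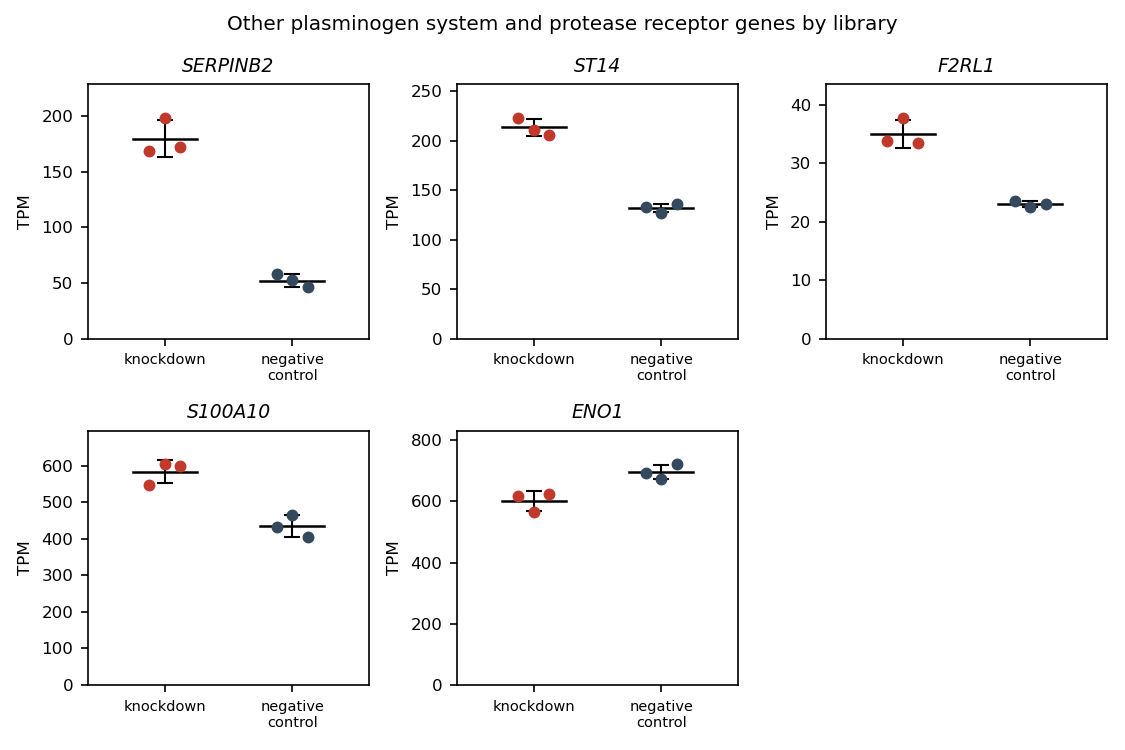
TPM (y axis, from 0) of 5 other genes in the 3 knockdown and 3 negative control libraries, 1 point per library, with group mean and SD as lines. SERPINB2, ST14, F2RL1 and S100A10 lie higher in every knockdown library, and ENO1 lies lower.

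Genes of the coagulation cascade were mostly at or near 0. Of 24, 17 were under the filter, F7 and F10 among them at means of 0.01 and 0.0233 TPM. None of the 7 tested was called by limma. At an unadjusted p under 0.05, 2 were lower and 0 higher, and the share of all genes at that p is not given here. After median ratio scaling, quantile normalization or rescaling, 1 was called lower. Of 4 protease-activated receptor genes, 2 were tested. F2RL1, whose receptor PAR2 is cut by the tissue factor complex with factor VII and by trypsin-like proteases such as matriptase, stood at 33.8, 37.8 and 33.4 TPM in knockdown libraries, against 23.6, 22.5 and 23.0 TPM in negative control libraries. It rose (limma log2 fold change 0.58, SE 0.07, adjusted p = 0.00258). F2R, the thrombin receptor gene, stood at 10.7 ± 1.04 TPM in knockdown and 12.4 ± 0.714 TPM in negative control libraries (SD, n = 3; limma adjusted p = 0.206).

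Counts in families related to the receptor and to annexin A2 were small, and are to be read against the 14.8% of all genes tested that were called in either direction. Among 9 tested annexins other than ANXA2, ANXA3 rose (limma log2 fold change 0.27, adjusted p = 0.0321) and the median log2 fold change was 0.03. The ANXA3 call was lost after median ratio scaling (adjusted p = 0.087) and without any 1 library other than knockdown replicate 1 (adjusted p between 0.0659 and 0.107). Of 11 tested partners and relatives of the urokinase receptor, 2 rose and 0 fell by limma. At an unadjusted p under 0.05, 4 were higher and 2 lower, counts to which the 14.8% does not apply. The called genes were the fibronectin receptor subunit ITGA5 (log2 fold change 0.36, limma adjusted p = 0.00912) and LY6E, an interferon-inducible surface protein (log2 fold change 0.50, limma adjusted p = 0.00619). Of 11 matrix metalloproteinases and their inhibitors, 4 were tested. The inhibitor gene TIMP1 rose (log2 fold change 0.35, limma adjusted p = 0.00756), while MMP14, a protease of the cell surface, stood at 222 ± 18.9 TPM in knockdown and 223 ± 10.7 TPM in negative control libraries (SD, n = 3; limma adjusted p = 0.953). The deposited annotation gave 6 of the 9 genes the KEGG term for complement and coagulation cascades. Of 35 other tested genes with that term, 6 rose and 2 fell, with a median log2 fold change of 0.07. Some genes, such as SERPINB2, are also counted in the lists above, so the counts of these lists are not independent. The count of 6 was the same without any 1 library, while the count of 2 was 1 or 0. Among those that fell was BDKRB1, a bradykinin receptor gene named after its values were seen. The smallest p belonged to C1S and SERPINB2, then C1R and SERPING1, of which C1S, C1R and SERPING1 act in the complement pathway. By limma, C1S differed by 1.03 and SERPING1 by 1.00 on the log2 scale.

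As a description, the 5 tested genes that tracked PLAUR most closely were CLDN4, SLC25A23, RARRES3, KRT81 and LGALS9. Pearson's r of log2(TPM + 1) over the 6 libraries was 0.998 to 0.999 for them and above 0.99 for 100 genes. The libraries fall into 2 groups, so r mainly follows the difference between groups.

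**Figure D5:**
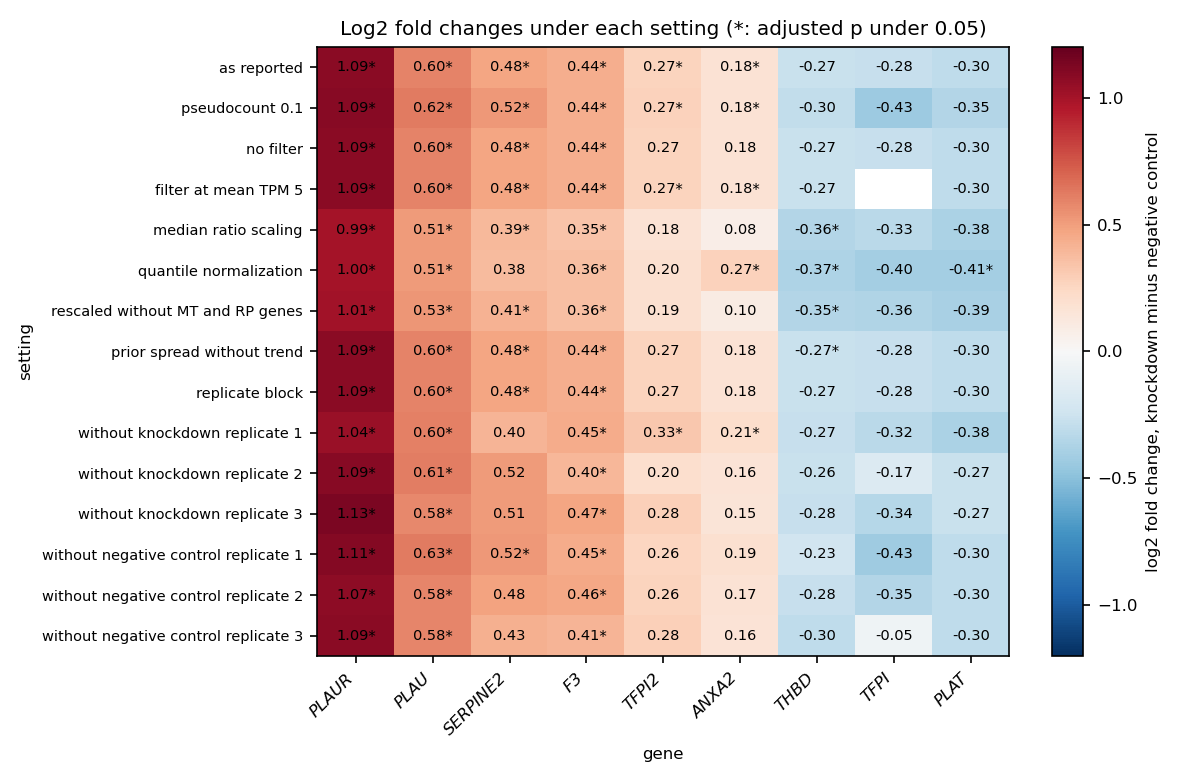
Log2 fold change, knockdown minus negative control, of each gene (columns) under each setting (rows), with an asterisk for an adjusted p under 0.05. PLAUR, PLAU and F3 were called in all 15 rows, and every gene kept its sign in every row where it was fitted. The blank cell is TFPI, which is under the filter at a mean TPM of 5.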

How the data were processed

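Total RNA from NCI-H292 cells was poly(A) selected, made into TruSeq libraries and sequenced as paired reads, per the labels' protocols. The authors deposited TPM values per gene in 6 libraries, with gene length (another column) and annotations, per the file headers. The submitters' processing notes name fastp, HISAT and RSEM without versions, and the mouse build GRCm38.p5, although 58883 of 60027 IDs are human Ensembl IDs. The build used is therefore unsettled, and positions were taken from GENCODE 29 (GRCh38) by Ensembl ID. The table held 1 empty line, left out here.

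The columns were matched to samples by group and replicate number. The filter was a mean of 1 TPM. Testing used limma 3.58.1 under R 4.3.3, a trended prior and log2(TPM + 1), 3 against 3 libraries, no covariates, with two-sided p-values adjusted by Benjamini-Hochberg over all 15755 genes. The fit was first tested on simulated data. Single values were compared by exact permutation (scipy 1.17.1). Depth is unknown, so no counting interval is given. Alternatives were the pseudocount, the filter, 3 scalings, the prior, the replicate block and leaving out each library.

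The 9 genes, lists and motifs were chosen with earlier results of these data known. 1 gene that the naming rule covers is not reported here. The text names the 9 genes, SH3PXD2A-AS1, list genes with the smallest p among those called (up to 4 a list), genes of the ratios and the 5 closest to PLAUR. ENO1, BDKRB1, PLG, F7, F10, F2R, MMP14 and the marker genes were named after their values were seen.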

Additional observations from a re-analysis of the deposited data

How the results depend on the processing

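PLAUR, PLAU and F3 were called in each of 14 alternatives, with log2 fold changes of 0.99 to 1.13, 0.51 to 0.63 and 0.35 to 0.47. All 9 genes kept their sign wherever fitted. The calls of SERPINE2, TFPI2 and ANXA2 were lost in 6, 11 and 10 of the 14. TFPI, under a filter at a mean TPM of 5, had no value there. Of the 9 genes, 0 were called lower at first, 1 (THBD) after median ratio scaling, 1 after rescaling without mitochondrial DNA and ribosomal protein genes, 1 with a prior without trend, and 2 (THBD and PLAT) after quantile normalization. Without 1 library, 3 to 5 of them were called higher and 0 lower. Over all genes, 1780 higher and 547 lower calls became 1136 and 339 without a filter, 1012 and 996 with median ratio scaling, 1001 and 980 with quantile normalization, and 1083 and 865 with rescaling. Without 1 library they were 867 to 1267 higher and 246 to 366 lower. Of the genes in the pathway lists, 3 were called lower at first, 0 without a filter or trend, 7 after median ratio scaling, 6 after quantile normalization or rescaling, and 0 to 2 without 1 library. The cause of these changes was not tested. With the replicate number as a block, 1123 genes were called higher and 343 lower. Deviations of same-numbered libraries correlated at only 0.017, -0.012 and 0.045, and those of other pairs at -0.044 to 0.037. No shared deviation was seen, which cannot tell whether same-numbered libraries were prepared together. Depth is unknown, and 3 libraries a group limit what differences could be called.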
